A study of Mus musculus with 2 samples.

Results

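A set of 9 genes that are recurrently mutated in human myelodysplastic syndrome (MDS) and leukaemia was read in mouse stem and progenitor cells: Runx1, Asxl1, Etv6, Cbl, Nras, Npm1, Stag2, Bcor and Phf6. They were chosen by name, with earlier results of these data known. Every non-control probe carrying one of these names, or a transcript of one of these genes, was taken. This gave 16 probes of 55680 kept on the array and 9 genes of 34786 genes or transcripts. All 16 probes were well above background on both arrays, so no member was lost to the filter on dim probes.

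The cells were bone marrow LSK cells, the lineage-negative, Sca-1-positive and c-Kit-positive fraction that holds haematopoietic stem cells and early progenitors. Mice were C57BL/6, and both groups had the genotype Tet2KD/KD Ezh2Δ/Δ, so no group with intact Tet2 and Ezh2 was read here. The TET2 protein oxidises methylated cytosine in DNA, and EZH2 methylates histone H3 as the catalytic part of Polycomb repressive complex PRC2. The cells came from secondary transplant recipients that carried the MDS, at 10 weeks after transplantation and 7 weeks after decitabine (DAC) or phosphate-buffered saline (PBS). Decitabine is a cytosine analogue that traps DNA methyltransferases. Each group had 1 array. The spread between mice is therefore unknown and no test was possible. The sources used here do not give the number of mice behind each array, their age or the dose.

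Clones of MDS and leukaemia gather mutations in a small number of gene classes, and the members come from several of them. RUNX1 and ETV6 are transcription factors of blood stem cells, and PHF6 is a chromatin-bound zinc finger protein. ASXL1 and BCOR belong to complexes that change the ubiquitination of histone H2A. STAG2 is a subunit of cohesin, the ring that holds sister chromatids and shapes chromosome loops. NRAS is a small GTPase of growth signalling, CBL a ubiquitin ligase that removes activated receptors and kinases, and NPM1 a nucleolar chaperone. Mutation calls were not part of these data, which measured the amount of transcript only.

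The sequences of the probes show what each value reads. They matter most for the 4 members with several probes, because probes of one gene differed there, and for Cbl, which differed most between the arrays when each member is read by its brightest probe. The letters are those of the deposited array files, 5′ to 3′, and each probe is 60 bases long. For Npm1, 3 probes are given whole. In the first pair the capital marks the base at which they differ, and the last one has no capitals.
Npm1 A_55_P1954965: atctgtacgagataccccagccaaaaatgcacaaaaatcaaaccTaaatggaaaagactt
Npm1 A_55_P2110718: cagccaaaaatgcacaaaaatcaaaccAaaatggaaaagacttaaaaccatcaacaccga
Npm1 A_66_P129873: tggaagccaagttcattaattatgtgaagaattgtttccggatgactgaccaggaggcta
The first pair overlap over 43 bases with 1 difference, T45A, counted from the 5′ end of A_55_P1954965 and giving its base first. They are therefore not independent readings of Npm1. For Runx1, Etv6, Nras and Cbl the first 30 bases of each probe are given, with no capitals.
Runx1 A_55_P2183438: caggagggcccttggaggccaccaggaaga
Runx1 A_51_P206585: tgtgcatcgtgtcactgtaaatgtaatggt
Etv6 A_55_P2230913: cctgttgtagtctcatggtgtttctggttt
Etv6 A_55_P2000404: acgctttcaagtacaaaatcaccattctac
Nras A_52_P649296: cattctgttgacaacagtttcttatactct
Nras A_52_P566348: ggtggaattagctcagctctatatgagaag
Nras A_51_P396273: actaatcagaagggggaacaaacatttgct
Cbl A_52_P819011: catccatctacagtatttagttatcattca
In mm9, the Runx1 probes lay at chr16:92605785-92605844 and chr16:92604413-92604472 on the minus strand, with starts 1372 bases apart. The Etv6 probes lay at chr6:134216664-134216723 and chr6:134197612-134197671 on the plus strand, 19052 bases apart. The Nras probes lay at chr3:102868451-102868510, chr3:102871322-102871381 and chr3:102870149-102870208 on the plus strand, all within 2931 bases. The Cbl probe lay at chr9:43958124-43958183 on the minus strand. Of the Npm1 probes, all on the minus strand, A_51_P467410 lay at chr11:33052565-33052624 and A_55_P2110718 at chr11:33056672-33056731. A_55_P1954965 spanned 303 bases of genome (chr11:33056689-33056991) and A_66_P129873 spanned 1193 (chr11:33052849-33054041), so their 60 letters are interrupted in the genome, as those of a probe across a splice junction are. The remaining members had 1 probe each, at chr2:153229684-153229743 (plus strand) for Asxl1, chrX:39630266-39630325 (plus) for Stag2, chrX:11614550-11614609 (minus) for Bcor and chrX:50309896-50309955 (plus) for Phf6. The sources used here do not say whether a probe lies in a coding or an untranslated part of its exon. No member probe shared a run of more than 22 bases with a probe of another gene, and the runs of 20 to 22 bases that did occur were T-rich stretches of the Etv6 probe A_55_P2230913.

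Among the members Cbl was the one past 2-fold between the arrays, 2.70-fold higher on the DAC array. Asxl1 was 1.45-fold higher, and Runx1 (1.67-fold), Bcor (1.42-fold) and Phf6 (1.19-fold) were lower, each by its brightest probe. Stag2 was 1.21-fold higher, while Etv6, Nras and Npm1 lay within 1.14-fold by that probe. Other probes of Nras and Etv6 were past 2-fold in opposite directions. All differences are log2 DAC minus PBS after scaling both arrays to a common 75th percentile of their detected probes, and a log2 difference of 1 is 2-fold. The error given is the SD that repeated spots alone would put on a log2 difference (spot SD), measured on probes printed several times. It was 0.093 for bright, 0.15 for middling and 0.32 for dim probes, 3 classes of equal size by mean level. It covers printing, hybridisation and scanning on these arrays, and leaves out mice, sorting, RNA extraction and labelling.

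By the brightest probe of each gene, 1 of 9 members exceeded 2-fold upward on the DAC array and 0 of 9 downward. Among all 18256 measured genes 10.0% did so upward and 6.82% downward, so the members' count was near the background. At 1.5-fold 1 member passed upward (Cbl) and 1 downward (Runx1), against 19.8% and 16.1% of all genes. At 4-fold 0 members passed either way, against 1.85% and 1.28%. The median difference of the members was 0.11, against 0.02 over all genes, and 5 members lay above 0 and 4 below. It was between −0.09 and 0.11 under other scalings and background treatments. By probe, 2 of 16 exceeded 2-fold upward and 1 of 16 downward, against 11.5% and 7.13% of the 25404 probes detected on both arrays. Most member probes were bright: 11 of 16 were in the bright class, where 1 of 11 was past 2-fold and 7.07% of all probes were. The median size of the difference among those 11 was 0.18, against 0.43 over all measured probes of any brightness.

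**Figure D1:**
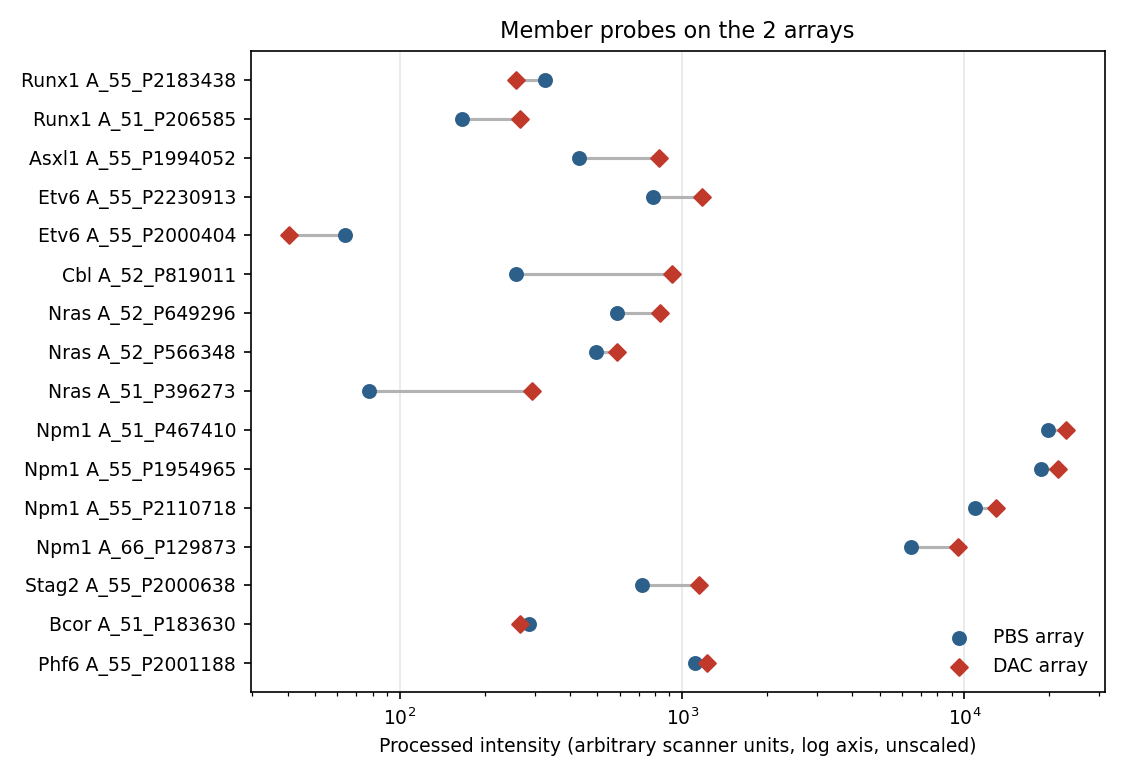
Processed intensity of each of the 16 member probes on the PBS array (circles) and the DAC array (diamonds), in scanner units on a log axis and before scaling. The DAC array was the brighter one, and the Runx1 probe A_55_P2183438, the Etv6 probe A_55_P2000404 and the Bcor probe still read lower on it.

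The DAC array was brighter as a whole. Of 55680 probes 56.8% were well above background on it and 48.5% on the PBS array, and the 75th percentile of the probes detected on both was 813 scanner units against 618. A probe with the same scaled level on both arrays therefore reads 0.40 higher on the log2 scale of raw intensity on the DAC array. No spot was saturated on either array.

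Among Runx1, Etv6 and Phf6, which encode regulators of transcription, a shared direction depended on the probe and the scaling. By the brightest probe Runx1 and Phf6 were lower and Etv6 slightly higher. By the mean over each gene's probes the values were −0.23 for Runx1, −0.43 for Etv6 and −0.25 for Phf6. Runx1 encodes the DNA-binding subunit of core binding factor, which is needed for the first blood stem cells and later for platelet and lymphoid development. Its brighter probe, A_55_P2183438 (NM_001111022), read 258 scanner units on the DAC array against 327 on the PBS array. Its other probe, A_51_P206585 (NM_009821), read 266 on the DAC array against 166 on the PBS array. The arrays were thus ordered one way by one probe and the other way by the other. After scaling the differences were −0.74 and 0.29, with a spot SD of 0.15, and both kept their sign in the 7 other scalings and background treatments, from −0.94 to −0.64 and from 0.08 to 0.20. The mean over the pair was −0.23.

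Etv6 encodes an ETS family repressor that stem cells need to stay in adult marrow. Its brighter probe, A_55_P2230913 (NM_007961), read 1178 on the DAC array against 790 on the PBS array. That is a scaled difference of 0.18 with a spot SD of 0.093, which became −0.02 in 2 alternatives. The dimmer probe, A_55_P2000404, named in the files by an Ensembl transcript (ENSMUST00000145869) only, read 40.6 on the DAC array against 63.8 on the PBS array. Its difference was −1.05, or 2.07-fold lower, with a spot SD of 0.32. It was the only member probe in the dim class, where 8.61% of all probes were at least 2-fold lower, and detection began at readings of 22.5 for DAC and 20.3 for PBS. With normexp background correction the difference was −0.60 and with no background subtraction −0.64, while the other 5 alternatives left it past 2-fold.

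Phf6 is an X-linked gene whose protein binds chromatin and the nucleolus, and it is mutated in leukaemias of T cell and myeloid type. It read 1225 on the DAC array against 1107 on the PBS array (NM_027642). The readings were close, and higher on the brighter array by less than that array's general excess. The scaled difference was −0.25 with a spot SD of 0.093, between −0.45 and −0.20 in the alternatives.

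The chromatin and cohesin genes Asxl1, Bcor and Stag2 had 1 probe each and differences below 2-fold. ASXL1 activates the deubiquitinase BAP1, which removes the Polycomb mark on histone H2A. Asxl1 read 825 on the DAC array against 432 on the PBS array (NM_001039939), a scaled difference of 0.54 with a spot SD of 0.093, between 0.34 and 0.53 in the alternatives. Bcor, an X-linked gene, encodes the BCL6 corepressor and a subunit of the variant Polycomb complex PRC1.1. It read 266 on the DAC array against 287 on the PBS array (NM_029510), a scaled difference of −0.51 with a spot SD of 0.15, between −0.71 and −0.42 in the alternatives. Asxl1 and Bcor therefore lay on opposite sides, each by more than 3 spot SD. Stag2, also X-linked, read 1149 on the DAC array against 723 on the PBS array (NM_001077712). Its scaled difference was 0.27 with a spot SD of 0.093, and it was as small as 0.07 in the alternatives. The 3 X-linked members differed in direction, and over the 670 measured genes with an X-linked probe the median difference was −0.02, with 15.8% past 2-fold.

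The signalling genes held the largest differences. Cbl encodes a RING ubiquitin ligase that marks activated receptors such as KIT and FLT3 for removal. It read 917 on the DAC array against 258 on the PBS array (NM_007619), a gap exceeded among the members by that of 1 Nras probe. The scaled difference was 1.43, 15.4 times the spot SD of 0.093, and it lay between 1.23 and 1.39 in the alternatives, past 2-fold in 7 of 7. Scaling over all probes, the series matrix values and median scaling each shift every probe by a constant (−0.20, −0.20 and −0.16). Shifts of that size could not bring 1.43 under 1, so the alternatives are not 7 separate checks. Among the signed differences of all measured probes Cbl stood at percentile 94.2. Cbl rested on 1 probe, and over all genes with several measured probes and the brightest past 2-fold, the next brightest probe had the same sign in 67.4% and was itself past 2-fold in that direction in 31.7%.

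Nras encodes a GTPase that passes signals from cytokine receptors to the RAF and MAP kinases. Its probe A_52_P649296 read 836 on the DAC array against 587 on the PBS array, and A_52_P566348 read 587 and 495. Their scaled differences were 0.11 and −0.15, with a spot SD of 0.093. The remaining probe, A_51_P396273, read 294 on the DAC array against 77.9 on the PBS array. It gave a difference of 1.52, or 2.87-fold higher, with a spot SD of 0.15. In its class of middling signal 15.3% of all probes were past 2-fold upward. All 3 probes carry the same accession (NM_010937), and the discordant one lies between the other two in the genome. Its difference was 0.97 with normexp correction and 0.98 with no background subtraction, just under 2-fold, and 1.30 to 1.36 in the other alternatives.

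Npm1 encodes an abundant nucleolar chaperone of ribosome assembly, and its last coding part is the site of the common leukaemia mutation. A_51_P467410 read 22875 on the DAC array against 19701 on the PBS array, and A_55_P1954965 read 21491 and 18688. A_55_P2110718 read 12916 and 10868, and A_66_P129873 read 9486 and 6449. In scaled values the first 3 were slightly lower on the DAC array, by −0.18, −0.19 and −0.15, and the last slightly higher, by 0.16. With a spot SD of 0.093 each lay near or within 2 spot SD, and each changed sign in 2 of 7 alternatives, so no direction can be given for Npm1. The overlapping pair shown above gave nearly the same difference.

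**Figure D2:**
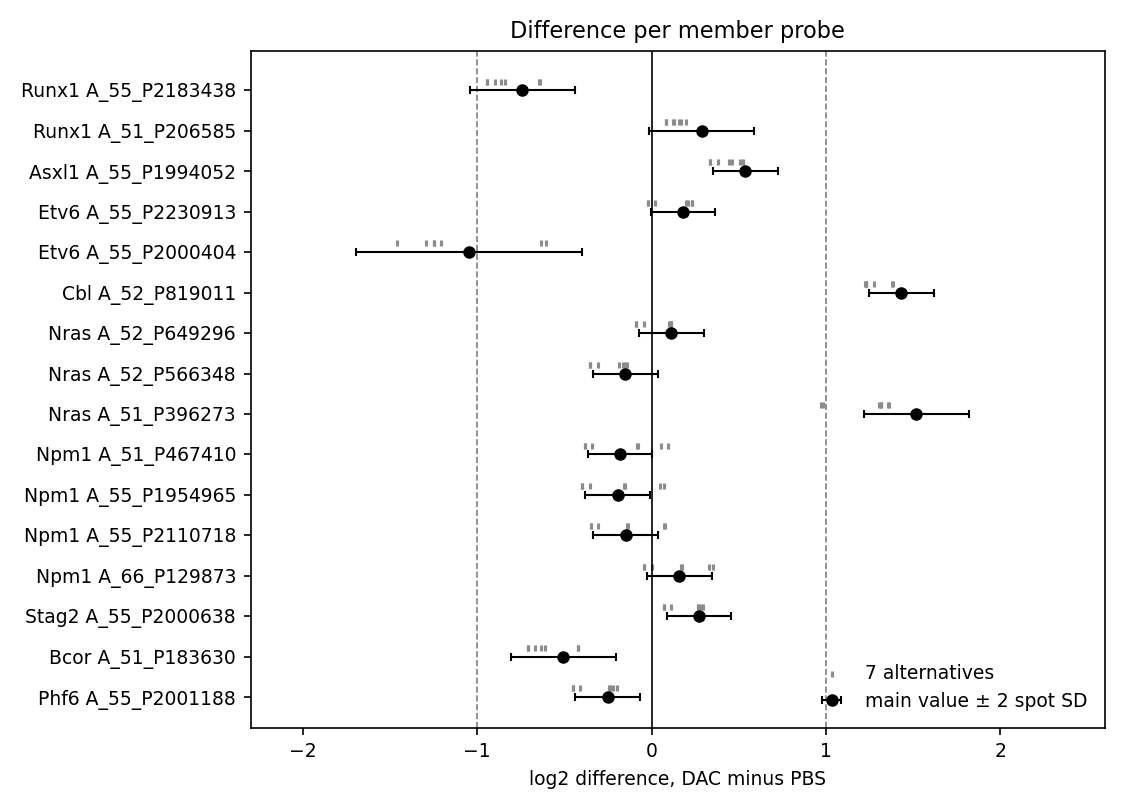
Log2 difference DAC minus PBS of each member probe (points, with bars of 2 spot SD either way) and the values under 7 other scalings and background treatments (grey ticks). Dashed lines mark 2-fold, and the probes of Cbl and A_51_P396273 of Nras lie beyond it on the higher side, A_55_P2000404 of Etv6 on the lower side.

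Members with several probes did not give 1 direction. The range of the log2 difference over a gene's probes was 1.03 for Runx1, 1.23 for Etv6, 1.67 for Nras and 0.36 for Npm1. Over the 4655 genes with at least 2 measured probes the median range was 0.68, and 36.0% had a range of 1 or more. Runx1, Etv6 and Nras had wider ranges than 65.3%, 72.8% and 83.5% of these genes, and Npm1 a wider one than 30.01%. Probes of opposite sign occurred in all 4 of these members and in 47.3% of all such genes. The genes compared were not matched on their number of probes, which was 3 for Nras and 4 for Npm1. More probes widen a range and make opposite signs likelier. The spot SD is smaller than these ranges, so the choice of probe moved the value of Runx1, Etv6 and Nras by more than the spot error does.

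**Figure D3:**
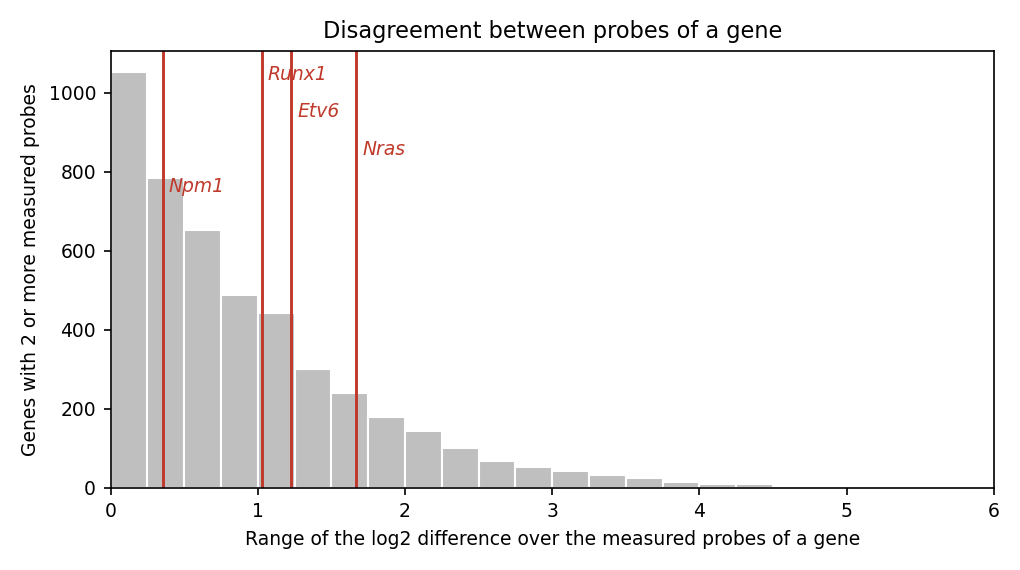
Histogram of the range of the log2 difference over the measured probes of a gene, for 4655 genes with at least 2, with the 4 members that have several probes as vertical lines. Npm1 (0.36) lies below the median range of 0.68, and Runx1, Etv6 and Nras lie above it.

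In sequence, the member probes were rather poor in G and C, from 33.3% to 58.3%, and 13 of 16 lay below the median of all probes, 43.3%. The highest, 58.3%, was the Runx1 probe that read lower on the DAC array. Promoter windows from RefSeq (GRCm38.p6, 250 bases before to 50 after the start) were found for 6 of the 9 members. CpG sites, the positions at which DNA methylation acts, numbered 43 in the window of Cbl, more than in 97.4% of 32851 windows, whose median was 7. Runx1 had 2 windows, with 2 and 35 CpG sites, at its distal and proximal starts. The windows of Asxl1, Etv6, Nras and Bcor held 13 to 21. Methylation was not measured in these data.

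Genes of the same complexes and pathways were taken from lists by name, and the lists were chosen with earlier results of these data known. Their counts beside those of all genes are therefore a description only. Of 146 related genes on the array 133 were measured, and 28 of these exceeded 2-fold upward, 4 downward and 101 neither way, around a median of 0.20 against 0.02 over all genes. Under the alternatives the higher count was between 17 and 26 and the lower between 2 and 7. A further 6 were detected on the DAC array alone and 0 on the PBS array alone. Of all probes 56.8% were detected on the DAC array, 48.5% on the PBS array and 45.6% on both. Detection on the DAC array alone was thus the more frequent kind over the whole array too. Which side held more calls over all genes depended on the scaling: 59.5% of genes past 2-fold were on the higher side, against 41.8% with scaling over all probes and 49.4% with no background subtraction.

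Around Runx1, its partner Cbfb had a difference of 0.05, which turned negative in 3 alternatives. Its paralogue Runx3, which acts in lymphoid and myeloid cells, was 2.59-fold higher with both probes above 0, and the corepressor Cbfa2t2 was 2.47-fold higher, with a log2 difference that was 0.90 at its lowest in the alternatives. In that list of 5 measured genes 2 passed upward, 0 downward and 3 neither way. Of 17 measured targets of RUNX1 known from other work, 6 passed upward, 0 downward and 11 neither way, around a median of 0.74. Over all genes 10.0% passed upward and 6.82% downward, around a median of 0.02. For the targets the upward count was 3 to 5 and the median 0.53 to 0.65 in the alternatives. The list was not divided by the direction in which RUNX1 acts on each target. The higher ones included the T cell kinase gene Prkcq (2.30, with its second probe of opposite sign), the neutrophil elastase gene Elane (1.56) and Cebpa (1.26), a myeloid transcription factor gene. Of the 19 genes in this list 5 are also markers of a cell type, among them the platelet genes Pf4 (1.04) and Itga2b (1.16), which were 0.84 and 0.26 at their lowest in the alternatives. The summed level of 8 megakaryocyte and platelet markers was 2.34 for DAC and 1.16 for PBS, in units of the 75th percentile. Gp6 and Ppbp were not above background on either. That sum includes Itga2b and, as its brightest gene, Pf4 (1424 scanner units against 527), so it is not separate from their values. Of its 5 measured markers 3 passed 2-fold upward, 0 downward and 2 neither way. The part of such cells in these values was not tested. In bulk samples more cells of a type and more RNA per cell cannot be told apart.

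Of the ETS genes related to Etv6, 0 of 7 were past 2-fold by the brightest probe, with a median of 0.16 that was −0.05 at its lowest in the alternatives. Ets1 was 0.86 by that probe and 1.35, past 2-fold higher, by the mean over its 2 measured probes. Around Asxl1, Bap1, the deubiquitinase that ASXL1 activates, was 2.07-fold higher, with a log2 difference of 1.05 that was under 1 in all 7 alternatives. Asxl2 had a difference of 0.77 by its brightest probe, with its other probe opposite. The methyl-CpG-domain gene Mbd5, whose protein binds BAP1, was 2.38-fold lower, and in that list 1 gene passed upward, 1 downward and 6 neither way. Mbd5 read 49.5 against 89.4, in the dim class, and its difference of −1.25 was −0.75 at its weakest, so that 0 genes of the list passed in either direction with normexp correction or with no background subtraction.

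Around Bcor, 2 of 9 measured genes of its complex passed upward, 0 downward and 7 neither way. They were the histone demethylase gene Kdm2b (1.56, both probes above 0), which brings PRC1.1 to CpG islands, and Yaf2 (1.79, or 0.98 at its lowest in the alternatives). The subunit gene Pcgf1 had a difference of −0.31 and the Bcor paralogue Bcorl1 one of −0.08, with its probes of opposite sign.

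Among 13 cohesin genes and regulators 4 passed 2-fold upward, 1 downward and 8 neither way, around a median of 0.44, or 0.23 to 0.49 in the alternatives. Pds5a and Pds5b counted within 2-fold by their brightest probes (0.22 and −0.41). By the mean over their measured probes they were −1.14 and −1.13, past 2-fold lower, while that mean was 0.37 for Stag1. The ring subunit gene Smc3 read 1126 on the DAC array against 235 on the PBS array, 3.64-fold higher after scaling. The loader gene Nipbl was 3.51-fold higher, with a log2 difference of 1.81 that was 1.05 at its lowest in the alternatives. Hdac8, the SMC3 deacetylase gene, read 1208 on the DAC array against 45.9 on the PBS array, a difference of 4.32 on 1 probe. Wapl, which releases cohesin, was 2.16-fold higher and was under 2-fold in the alternatives. The acetyltransferase gene Esco2, in the dim class, was 3.27-fold lower, with a log2 difference of −1.71 that was −1.02 at its weakest in the alternatives. The other ring subunits Smc1a (0.71) and Rad21 (0.76) were above 0 in each alternative, while Stag1 (0.18), the paralogue of Stag2, was −0.03 at its lowest.

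Around Cbl, Cblb, its closest paralogue, was detected on the DAC array alone, with 149 scanner units against an undetected 21.2, or 5.35-fold higher after scaling. The comparison takes the probe's own PBS signal or, if higher, the lowest detected reading of that array (20.3). Here the undetected signal was the higher of the pair, so the fold is not a strict minimum. The adaptor gene Grb2, which links CBL and the RAS exchange factor SOS to receptors, was 2.26-fold higher with both probes above 0. Of the 6 measured genes in that list 1 passed upward, 0 downward and 5 neither way. With scaling over all probes and with the series matrix values Grb2 was just under 2-fold, at 0.98 at its lowest, and 0 of the 6 passed.

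In the RAS pathway 3 of 21 measured genes passed upward, 1 downward and 17 neither way, around a median of 0.22. The MAP kinase kinase gene Map2k1 (2.01), the RAS GTPase-activating gene Rasa2 (1.32) and the feedback inhibitor gene Spred1 (1.16, both probes above 0) were the higher ones, and Rasa1 (−1.78), which also switches RAS off, was the lower one. At their lowest in the alternatives Map2k1 was 0.87, Rasa2 0.43 and Spred1 0.96, and with normexp correction or with no background subtraction 0 of the 21 genes passed upward. The Nras paralogue Hras had a difference of −0.13.

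Among nucleophosmin relatives and nucleolar genes, 0 of 6 were past 2-fold, with a median of −0.17, and Npm3, a paralogue of Npm1, had a difference of −0.51. Cdkn2a, whose ARF protein binds NPM1, was detected on the DAC array alone, with 68.6 scanner units against an undetected 23.2. After scaling it was 2.25-fold higher, which is not a strict minimum either.

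**Figure D4:**
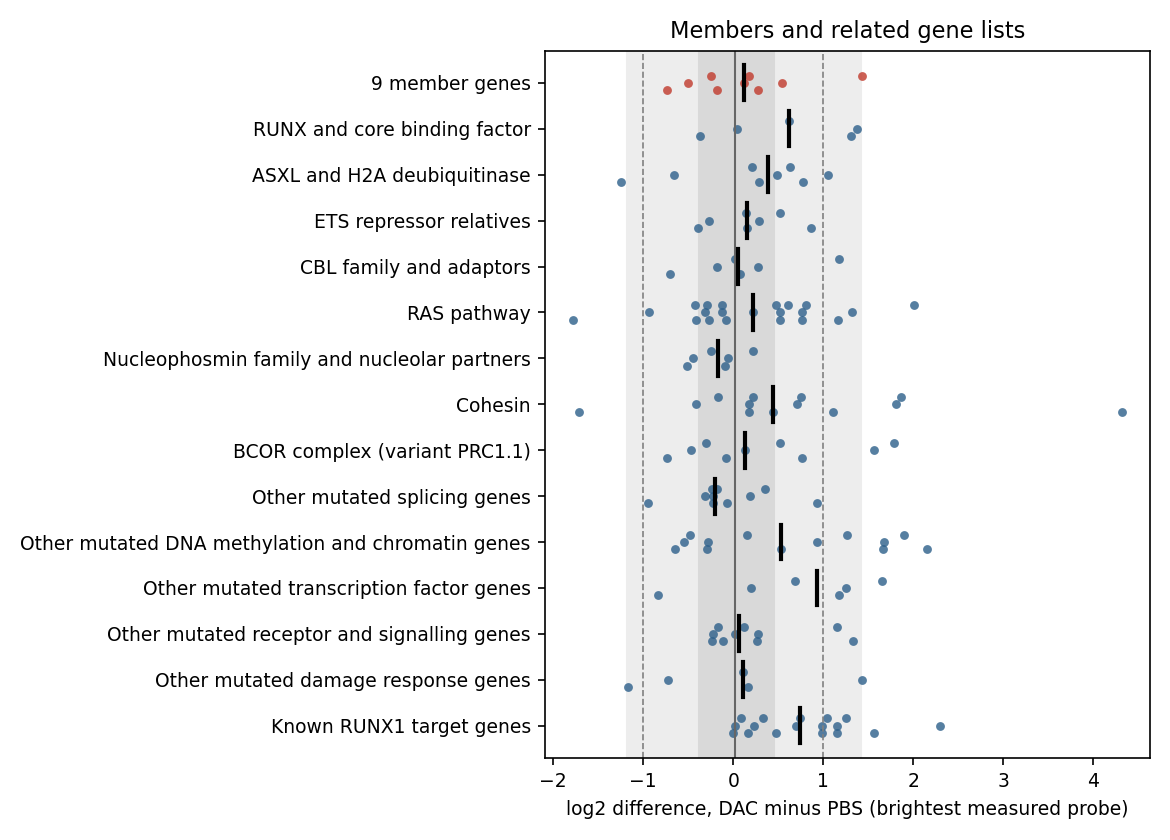
Log2 difference DAC minus PBS by the brightest measured probe for the 9 members (top row, red) and for the lists of related genes (blue), with the median of each as a black bar. The shaded bands hold the middle 50% and 90% of all 18256 measured genes and dashed lines mark 2-fold. Cbl is the 1 member beyond 2-fold, and Hdac8 of the cohesin list lies farthest out at 4.32.

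Genes mutated in the same diseases and outside these complexes are given by class, and differences between the classes were not tested. Of 13 measured DNA methylation and chromatin genes 5 passed upward, 0 downward and 8 neither way: the histone methyltransferase genes Kmt2d (2.16, with 2 of 3 probes above 0) and Setd2 (1.26), the remodeller gene Atrx (1.89, all 3 probes above 0), Dnmt3a (1.68) and Tet2 (1.66, both measured probes above 0). Setd2 was 0.71 at its lowest in the alternatives. Both groups had the genotype Tet2KD/KD Ezh2Δ/Δ, so the Tet2 value cannot be read as an amount of intact Tet2 transcript. The same holds for Ezh2, which counts in this class and read 642 on the DAC array against 712 on the PBS array. Transcription factor genes had 3 of 6 past 2-fold upward, 0 downward and 3 neither way: Ikzf1 (1.65, with 2 of 3 probes above 0), Cebpa (1.26) and Gata2 (1.17, or 0.97 at its lowest). Receptor and signalling genes had 2 of 10 past it upward, among them Jak2 (1.33), 0 downward and 8 neither way. Splicing genes had 0 of 10 past 2-fold, with a median of −0.20. Damage response genes had 1 of 5 past it upward (Chek2, 1.43), 1 downward (Atm −1.17, with its other probe opposite) and 3 neither way. With normexp correction or with no background subtraction 0 of the 5 passed in either direction. The 10.0% and 6.82% of all genes past 2-fold stand as the background for each of these counts.

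The sorted fraction was checked on its markers. Of 11 LSK markers 10 were well above background on both arrays, with differences of 0.12 for Kit and 0.07 for Ly6a, which encodes Sca-1, and Slamf1 was not above background on either. Markers of other lineages were also read. The summed level on the DAC array over that on the PBS array ranged from 0.41 for mast cell, basophil and eosinophil markers to 2.03 for megakaryocyte and platelet markers. It was 0.78 for mature neutrophil, 0.91 for erythroid and 1.14 for B cell markers. Such a sum follows its brightest genes, and genes within a list went both ways. Of 7 measured mast cell, basophil and eosinophil markers 2 were past 2-fold higher and 4 lower. Of 7 measured neutrophil markers 1 was past it higher and 2 lower. Of 9 erythroid and of 8 B cell markers 1 was past it higher and 1 lower. The part of these lineages in the members' differences was not tested.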

How the data were processed

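Per the file headers, both arrays lay on 1 slide, probe positions refer to mm9, and the software was Agilent Feature Extraction 10.7.3.1 (protocol GE1_107_Sep09). The authors deposited a processed intensity per spot, already background-subtracted and detrended and not normalized between arrays, with spot flags. They also deposited a table of log2 values, whose difference between arrays followed the log2 processed intensity with a slope of 1.00 and an offset of −0.60. Its baseline per probe is unknown, so it was used for differences only.

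Spots called non-uniform or outlying were left out and the others of a probe averaged as log2 values. Probes counted as detected (well above background) on an array where that call was set for 50% or more of their spots, and 45.6% of probes were detected on both. Each array was scaled to its 75th percentile over those probes. The probe with the highest mean signal among those measured stood for a gene. Of the kept probes, 26761 were named by accession, 3819 by symbol and 639 by synonym through RefSeq (GRCm38.p6), and 24461 kept the name in the file. Named beyond the members were up to 4 related genes per list past 2-fold, up to 3 on 1 array only, and direct partners. Wapl, Pds5a, Pds5b, Ets1, Setd2, Ezh2, Pf4, Itga2b, Kit and Ly6a were named after their values were seen. Some genes in the lists count towards the list values and are not reported here by name. The procedure was tested on simulated data. Alternatives, run with limma 3.58.1 in R 4.3.3 where needed, were 5 other scalings, normexp correction (offset 50), no background subtraction, other filters and thresholds. They are not independent of each other. Scaling over all probes and the series matrix values shift all differences by nearly the same constant, −0.20. With 1 array per group no test was made, and the number of arrays limits the precision. The members and lists were chosen with earlier results of these data known.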

Additional observations from a re-analysis of the deposited data

How the results depend on the processing

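No paired analysis was possible because each group has 1 array. Cbl was the member at least 2-fold higher in every scaling, background and filter setting, and no member was 2-fold lower in any of them. At 1.5-fold 1 member was lower (Runx1), and at 4-fold 0 members were higher. Of the member probes, 1 was higher and 0 lower with normexp correction, with no background subtraction and among probes at or above the median signal, against 2 and 1. The median of the members was −0.089 with scaling over all probes, −0.088 with the series matrix values, −0.091 with the mean over a gene's probes, and −0.045 with median scaling. Over all genes, 1826 were higher and 1245 lower at 2-fold. The counts were 721 and 752 with normexp correction, 717 and 735 with no background subtraction, 5364 and 3038 without a filter, 3698 and 2207 where the positive and significant call was the filter, 599 and 506 at or above the median signal, 3617 and 2931 at 1.5-fold, and 338 and 234 at 4-fold. With no scaling between the arrays, an alternative added after seeing the data, 3500 genes were higher and 642 lower, 0 member probes were lower and the members' median was 0.51. The median of all genes, 0.02, was −0.18 with scaling over all probes and with the matrix values, −0.14 with median scaling and −0.09 with quantile normalization. The cause of these shifts was not tested. Low signal over background limits the Etv6 probe past 2-fold, the 1 member probe in the dim class.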
